A study of Homo sapiens with 24 samples.

Results

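Messenger RNA of 10 nucleolar ribosome biogenesis genes was followed in human triple-negative breast cancer cells exposed for 3 h to a degrader or an inhibitor of BET proteins. The genes were taken by name (POLR1A, POLR1B, FBL, NOP56, NOP58, NOLC1, NCL, NPM1, BOP1 and RRS1), and all 10 were among the 14114 genes of the deposited table. MYC was read beside them in every comparison. The established lines MDA-MB-157, MDA-MB-468 and MDA-MB-231, all of the basal subtype and described as without estrogen receptor, progesterone receptor and HER2 overexpression, each gave 8 libraries of ribosome-depleted total RNA. The groups of a line were the degrader BETd-246 at 100 nM, the inhibitor BETi-211 at 1000 nM, thalidomide at 1000 nM and the vehicle DMSO. Each of the 12 groups held 2 libraries, 24 in all, which the series describes as independent biological replicates, and thalidomide and DMSO together formed the 4 control libraries of a line.

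Ribosomes are assembled in the nucleolus, where RNA polymerase I transcribes the ribosomal RNA precursor and a large set of proteins and small nucleolar RNAs cut, modify and fold it. Many of the genes for these proteins are known targets of the transcription factor MYC, and MYC transcription is itself known to depend on BET proteins in many cancer cells. BET inhibitors displace these proteins from chromatin, whereas BET degraders bring them to the cereblon ubiquitin ligase for destruction, and thalidomide binds cereblon.

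Values were read as FPKM, that is fragments for each kilobase of transcript relative to all fragments of a library, so a value is a share of a library and a fall in all transcripts of a cell would not show in it. Fewer cells of a kind and less RNA per cell cannot be told apart in such bulk samples. The depth was estimated at 43200000 to 64600000 fragments per library, at which a single fragment of RRS1 is worth at most 0.0136 FPKM. Across genes the replicates of a group correlated at 0.992 to 0.999, with the lowest value in thalidomide-treated MDA-MB-231. ESR1 and PGR were not among the genes of the table, and ERBB2 averaged 12.4 to 18.6 FPKM in the controls. KRT5, a keratin of basal epithelium, averaged 752 FPKM in MDA-MB-468 controls, but 0.00188 in MDA-MB-231 cells and 0.536 in MDA-MB-157 cells, where the mesenchymal filament gene VIM averaged 891 and 1996 FPKM against 12.3 in MDA-MB-468. Of the markers PTPRC, CD3E, CD14, PECAM1, CDH5 and VWF of blood and endothelial cells only CD14 was in the table, at 56.6 ± 4.20 FPKM in MDA-MB-157 controls (SD, n = 4) and at 0.277 to 0.567 FPKM on average in the other lines. The mitochondrial share of FPKM was 9.66 to 11.98% with BETd-246, 10.8 to 12.1% with BETi-211 and 8.02 to 10.4% in the controls of MDA-MB-157. The shares in MDA-MB-468 were 9.55 to 9.74% with BETd-246 and 8.44 to 8.93% with BETi-211, above 7.19 to 8.33% in the controls. Those in MDA-MB-231 were 14.9 to 15.1% with BETd-246, 13.4 to 14.3% with BETi-211 and 9.79 to 13.99% in the controls, and the part of this shift in the changes below was not tested.

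Before any effect of a compound, the lines differed in the level of these genes. In MDA-MB-231 controls all 10 were higher than in MDA-MB-157 controls, in a comparison in which 37.2% of all genes were called higher and 50.1% lower, although NPM1 turned to -0.052 (adjusted p = 0.0903) after quantile normalization. In MDA-MB-468 controls 7 were called higher and BOP1 lower than in MDA-MB-157, beside 42.1% and 46% of all genes. Against MDA-MB-231, the MDA-MB-468 controls had 3 of the 10 called higher and 6 lower, beside 47.8% and 38.4% of all genes. A gene was called here and below at a Benjamini-Hochberg adjusted p under 0.05 over all genes in limma on log2(FPKM + 1).

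FBL, the methyltransferase of the box C/D snoRNPs, spread most between lines. It averaged 133 ± 17.2 FPKM in MDA-MB-468 controls, 106 ± 7.02 in MDA-MB-231 controls and 21.3 ± 0.396 in MDA-MB-157 controls (SD, n = 4 each). Means of compound groups below are over 2 libraries. BOP1, a large-subunit assembly factor, had another order, with 21.2 ± 1.93 FPKM in MDA-MB-468, 66.5 ± 3.27 in MDA-MB-231 cells and 42.3 ± 3.81 in MDA-MB-157 cells. RRS1, a regulator of large-subunit assembly, was the least abundant per length in all 3 lines, at 10.8 ± 0.854, 13.4 ± 1.57 and 10.6 ± 0.478 FPKM in the same order of lines. RRS1 did not pass the test between MDA-MB-468 and MDA-MB-157 (log2 difference 0.018, adjusted p = 0.771). NPM1, the abundant nucleolar chaperone nucleophosmin, was the most abundant, at 916 ± 45.0 FPKM in MDA-MB-468, 631 ± 58.3 in MDA-MB-231 cells and 559 ± 35.2 in MDA-MB-157 cells. It shares sequence with 45 annotated pseudogenes, of which 3 had rows of their own, so its level carries that uncertainty.

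**Figure D1:**
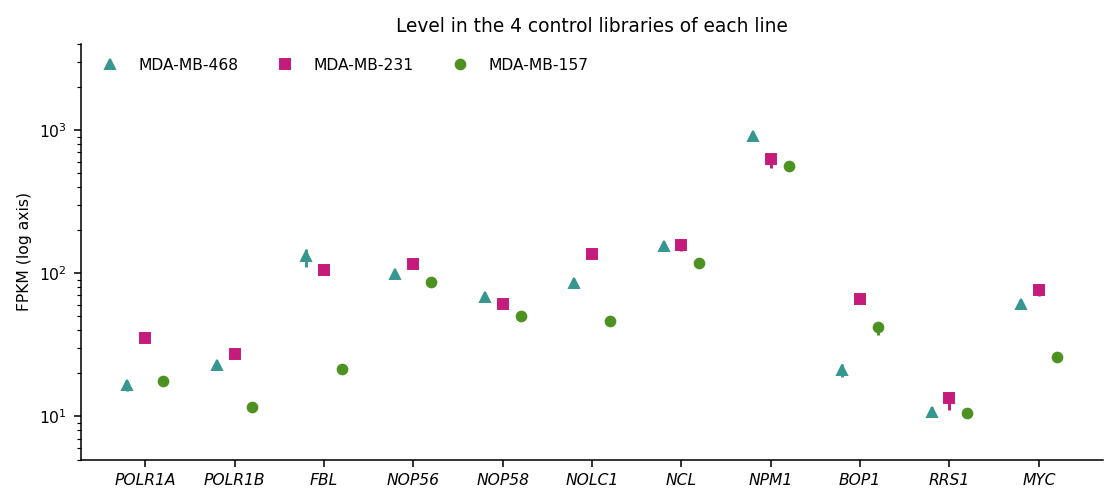
Level of the 10 genes and of MYC in the controls of MDA-MB-468, MDA-MB-231 and MDA-MB-157 (FPKM, log axis). Symbols are means of 4 control libraries and vertical lines run from the lowest to the highest library; FBL is at 21.3 FPKM in MDA-MB-157 and above 100 FPKM on average in the other lines.

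RRS1, POLR1B and NOP56 were the genes called with both compounds in every line. RRS1 fell by more than a fold of 2 with both compounds in every line on the log2(FPKM + 1) scale, where the added 1 makes the fold of so low a gene smaller, POLR1B fell by less with both, and NOP56 was lower with BETd-246 but higher with BETi-211. The other 7 ran between -0.14 and 0.21 on the log2 scale with BETd-246 and between -0.21 and 0.24 with BETi-211, a range that overlaps the size of the NOP56 changes with BETd-246. Sets of 3 values from here on are for MDA-MB-157 cells, MDA-MB-231 cells and MDA-MB-468 cells in that order. MYC fell with BETd-246 in every line, by 1.91, 2.51 and 3.28, and changed by 0.28, -0.58 and -1.58 with BETi-211.

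With BETd-246, 4 genes were called lower and 1 higher in MDA-MB-157, against 32.4% and 19% of all genes. In MDA-MB-231 the counts were 3 lower and 1 higher, against 33.3% and 14.8% of all genes, and in MDA-MB-468 they were 3 and 3, against 33.7% and 20.1%. With BETd-246 the share of the 10 genes called lower was thus near the background. With BETi-211, 2 were lower and 4 higher in MDA-MB-157, against 30.9% and 14.9%. MDA-MB-231 had 4 lower and 2 higher, against 31.4% and 18.7%, and MDA-MB-468 had 4 and 4, against 32.5% and 21.3%.

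The median change of the 10 genes was -0.011, -0.015 and 0.030 with BETd-246, beside -0.027, -0.047 and -0.029 over all genes. With BETi-211 it was 0.11, 0.063 and 0.10, beside -0.033, -0.031 and -0.014. The 10 genes thus had no common shift below that of all genes. RRS1, POLR1B and NOP56 were called lower with BETd-246 in all 3 lines, which 23.6% of all genes were, and RRS1 and POLR1B with BETi-211, which 19.9% were. NOP56 and NPM1 were called higher with BETi-211 in all 3 lines, which 8.26% of all genes were, while 0 of the 10 were called higher with BETd-246 in all 3 lines, beside 8.59%. The comparisons of BETd-246 and of BETi-211 with the controls of a line share those 4 control libraries.

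**Figure D2:**
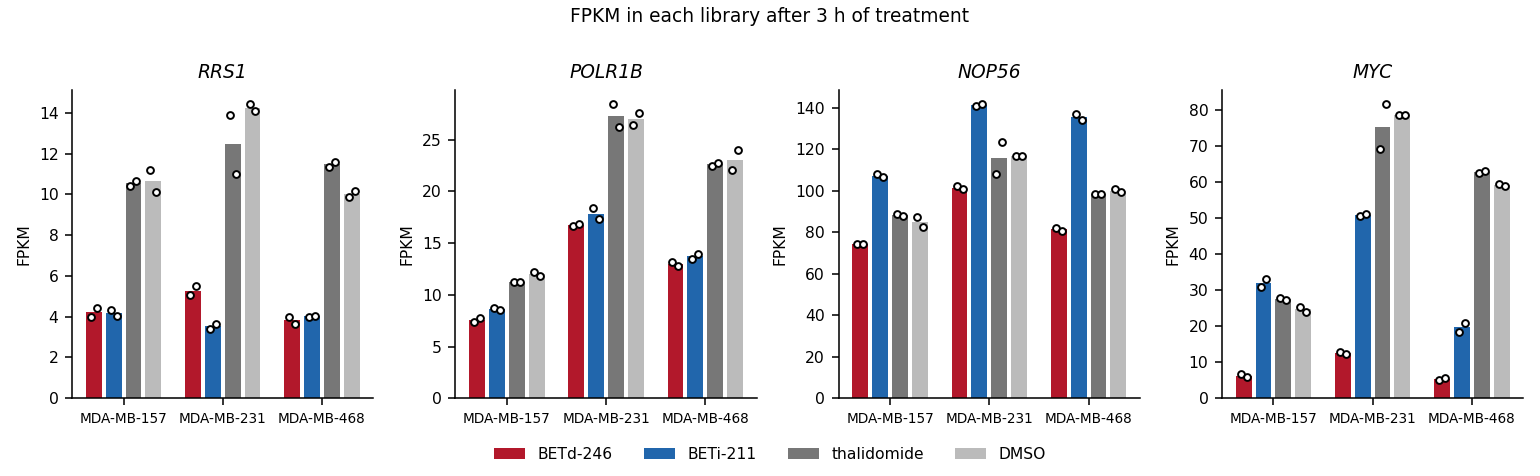
FPKM of RRS1, POLR1B, NOP56 and MYC in the 24 libraries. Bars are means of 2 libraries and circles are the libraries; from left to right within a line the groups are BETd-246, BETi-211, thalidomide and DMSO, and RRS1 is below 6 FPKM in all 12 libraries with a BET compound and above 10 FPKM in all but 1 control library, which had 9.89 FPKM.

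**Figure D3:**
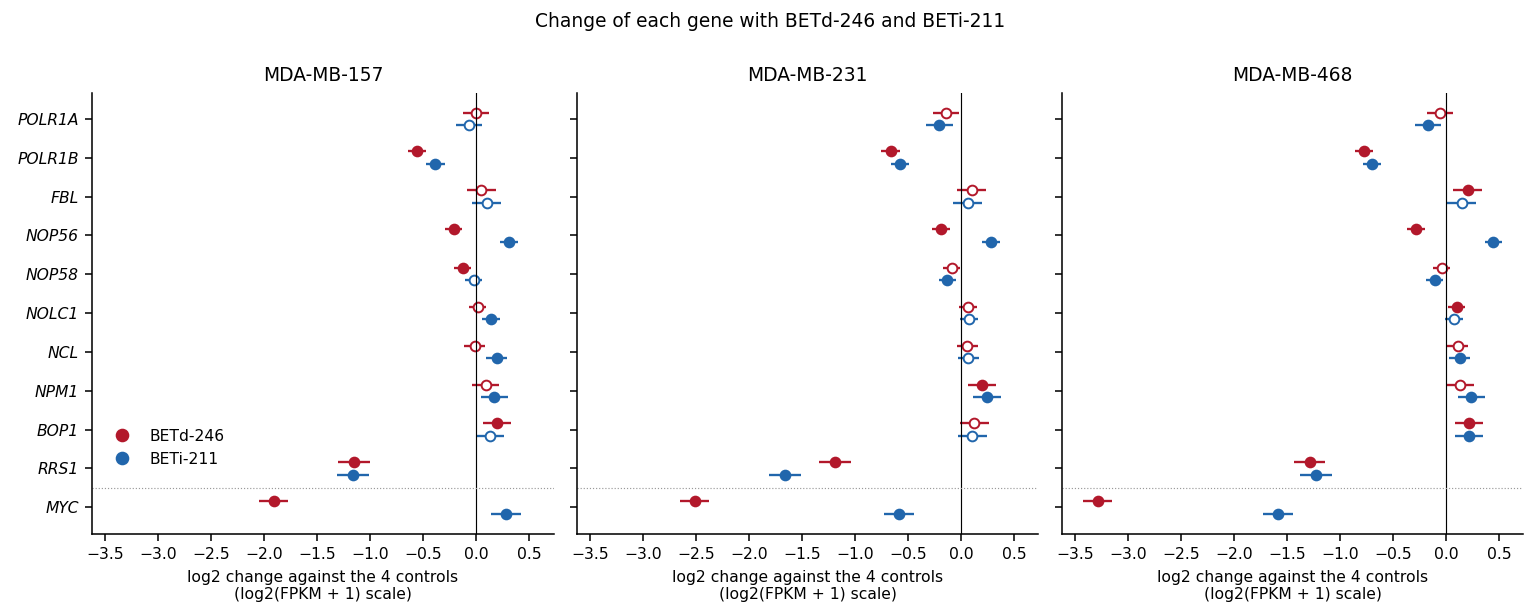
Change of each gene against the 4 controls of its line on the log2(FPKM + 1) scale, BETd-246 in red above BETi-211 in blue. Bars are 95% confidence intervals and filled points had an adjusted p below 0.05; RRS1 and POLR1B lie left of 0 in all panels, and NOP56 lies left of 0 with BETd-246 and right of it with BETi-211.

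Of the catalytic subunits of RNA polymerase I, POLR1B fell with both compounds in every line, and POLR1A was called lower with BETi-211 in all lines but MDA-MB-157. POLR1B encodes the second-largest subunit, which forms the active site with the largest, and lies on the plus strand at chr2:112541915-112577150 (GENCODE 29, GRCh38), a span of 15 exons in its principal transcript. In MDA-MB-157 it had 7.33 and 7.78 FPKM with BETd-246, 8.72 and 8.56 with BETi-211, 11.2 and 11.3 with thalidomide and 12.2 and 11.8 with DMSO. In MDA-MB-231 it had 16.7 and 16.8 FPKM with BETd-246, 18.4 and 17.3 with BETi-211, 28.4 and 26.2 with thalidomide and 26.4 and 27.5 with DMSO. Every library with a compound was thus below every control library of its line. In MDA-MB-468 the values were 13.1 and 12.7 FPKM with BETd-246, 13.5 and 13.96 with BETi-211, 22.5 and 22.8 with thalidomide and 22.1 and 23.98 with DMSO, again without overlap.

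The POLR1B changes with BETd-246 were -0.56, -0.66 and -0.77 on the log2 scale (SE 0.041 each, adjusted p = 7.94e-09, 8.52e-10 and 9.20e-11). With BETi-211 they were -0.39, -0.58 and -0.70 (adjusted p = 8.95e-07, 6.70e-09 and 5.11e-10). All 6 falls kept their call in each alternative analysis. POLR1A encodes the largest subunit and lies on the minus strand at chr2:86020216-86106155. With BETi-211 it fell to 30.4 ± 1.16 FPKM in MDA-MB-231, against 35.2 ± 2.43 in the controls, a log2 change of -0.21 (adjusted p = 0.00773), and by 0.17 in MDA-MB-468 (adjusted p = 0.021). These calls were lost in 5 and 8 of 21 alternatives, in the order of these lines, with adjusted p up to 0.0991 and 0.456. With BETd-246 its changes of -0.0042, -0.14 and -0.056 did not pass.

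The upstream sequence of POLR1B is shown because, of RRS1 and POLR1B, the genes called lower with both compounds in every line, it was the one with a RefSeq promoter entry. FBL is set beside it as a gene that was not called lower in any comparison with a compound. Both are the bases before the RefSeq start (GRCh38.p14) that no annotated exon covers, at chr2:112541786-112541914 on the plus strand for POLR1B and chr19:39846415-39846629 on the minus strand for FBL. Capitals mark CGCGTG, the reverse complement of CACGCG, a variant of the E-box that MYC and MAX are known to bind, CACGTG.
POLR1B: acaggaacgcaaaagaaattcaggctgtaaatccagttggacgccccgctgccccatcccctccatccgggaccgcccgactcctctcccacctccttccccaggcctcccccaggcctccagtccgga
FBL: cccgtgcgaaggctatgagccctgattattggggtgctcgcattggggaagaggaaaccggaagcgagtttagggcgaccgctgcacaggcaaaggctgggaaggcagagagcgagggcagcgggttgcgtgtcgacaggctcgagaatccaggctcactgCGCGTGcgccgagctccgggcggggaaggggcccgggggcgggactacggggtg
The POLR1B stretch of 129 bases holds neither word, and the FBL stretch of 215 bases holds CGCGTG 1 time. In the full 250 bases before the start, CACGTG was in 0 of the 6 genes of the group with an entry, in 16.5% of 115 genes of wider ribosome biogenesis lists and in 11.2% of 9565 genes of the table. CACGCG or CGCGTG was in 2 of the 6, FBL and NPM1, beside 21.7% and 19.9%. In NPM1 a start had both words 2 times, and the 2 words can share letters. Both strands are covered, and a gene with several starts counted once.

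The box C/D snoRNP core, which places methyl groups on ribosomal RNA, had its largest changes in NOP56. NOP56 encodes a core scaffold protein of these particles and lies on the plus strand at chr20:2652145-2658393. In MDA-MB-157 it had 74.6 and 74.4 FPKM with BETd-246, 108 and 107 with BETi-211, 88.7 and 87.9 with thalidomide and 87.2 and 82.5 with DMSO. In MDA-MB-231 it had 102 and 101 FPKM with BETd-246, 141 and 142 with BETi-211, 108 and 123 with thalidomide and 117 and 117 with DMSO. In each line the libraries with BETd-246 lay below all controls and those with BETi-211 above all controls. The MDA-MB-468 libraries had 82.1 and 80.8 FPKM with BETd-246, 137 and 134 with BETi-211, 98.4 and 98.4 with thalidomide and 101 and 99.6 with DMSO.

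The rise of NOP56 with BETi-211 was 0.31, 0.28 and 0.45 on the log2 scale (SE 0.039 each, adjusted p = 5.99e-06, 1.42e-05 and 5.59e-08), and it kept its call in each alternative analysis. The fall with BETd-246 was 0.21, 0.19 and 0.28 (adjusted p = 0.000254, 0.000739 and 1.23e-05). That fall depends on how libraries are scaled. With median-of-ratios scaling, which moved the median of all genes up by 0.12 to 0.13 with BETd-246, NOP56 changed by -0.055 in MDA-MB-157 (adjusted p = 0.208) and in MDA-MB-231 by 0.0090 (adjusted p = 0.862), and it stayed called in MDA-MB-468. Relative to the median of all genes NOP56 was lower with BETd-246 by 0.070 to 0.48 on the deposited scale and under 4 other scalings.

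The gene holds 5 small nucleolar RNA genes, all with rows of their own and all overlapping annotated NOP56 exons. Whether their fragments were also counted to NOP56, or NOP56 fragments to them, is not given in the sources used here. SNORD86 was at 6.95 and 6.79 FPKM with BETd-246 in MDA-MB-157, 18.5 and 15.6 with BETi-211, 12.8 and 16.5 with thalidomide and 19.9 and 10.6 with DMSO, and its fall with BETd-246 passed in that line alone (log2 change -0.98, adjusted p = 0.000394). SNORD110 was lower with BETd-246 (-0.76, adjusted p = 0.0263) and higher with BETi-211 (0.73, adjusted p = 0.0347) in MDA-MB-157. It was under 6 FPKM there, with 0.422 and 1.91 FPKM with BETd-246 and 5.44 and 4.12 with BETi-211. The controls had 3.44 and 1.04 with thalidomide and 2.72 and 3.21 with DMSO. The BETd-246 and control libraries thus overlapped, and these calls rest on few fragments. The other 3 did not pass in any comparison with controls. SNORA75, which lies inside NCL, fell with BETd-246 by 0.70 in MDA-MB-231 and by 0.76 in MDA-MB-468 (adjusted p = 0.0454 and 0.0297), where NCL itself was not called. Its values were low, so these falls rest on few fragments. In MDA-MB-231 it had 0.175 and 0.289 FPKM with BETd-246, 1.01 and 0.64 with DMSO and 1.17 and 1.26 with thalidomide. In MDA-MB-468 it had 1.41 and 0.407 FPKM with BETd-246, 2.4 and 1.75 with DMSO and 1.79 and 2.57 with thalidomide.

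FBL averaged 152 ± 1.78 FPKM with BETd-246 in MDA-MB-468, 146 ± 8.58 with BETi-211 and 133 ± 17.2 in the controls. The rise of 0.21 with BETd-246 passed (adjusted p = 0.0127), while changes between 0.046 and 0.15 in the other 5 comparisons did not. The call was lost in 6 of 21 alternatives, among them thalidomide alone as control (0.059, adjusted p = 0.556). In that line FBL averaged 146 ± 1.95 FPKM with thalidomide and 119 ± 12.9 with DMSO. NOP58, the partner of NOP56 in the particle, fell by 0.13 with BETd-246 in MDA-MB-157 (adjusted p = 0.00998). With BETi-211 it fell by 0.13 in MDA-MB-231 and by 0.11 in MDA-MB-468 (adjusted p = 0.00942 and 0.0245), calls that were lost in 4 and 6 of 21 alternatives (adjusted p up to 0.327 and 0.61). In MDA-MB-157 it averaged 45.95 ± 1.52 FPKM with BETd-246, against 50.4 ± 2.17 in the controls. Median-of-ratios scaling turned the sign of the NOP58 change with BETd-246 in all 3 lines.

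The nucleolar scaffold and chaperone genes were not called lower with either compound in any line, and small rises were called for each of them in some comparisons, most of which did not pass under column-total scaling or quantile normalization. NOLC1, a phosphoprotein that escorts snoRNPs, rose by 0.14 with BETi-211 in MDA-MB-157 (adjusted p = 0.00916) and by 0.099 with BETd-246 in MDA-MB-468 (adjusted p = 0.0422). These NOLC1 calls were lost in 2 and 12 of 21 alternatives. NCL, the precursor-binding protein nucleolin, rose by 0.19 with BETi-211 in MDA-MB-157 (adjusted p = 0.00285) and by 0.13 in MDA-MB-468 (adjusted p = 0.0281), calls that were lost in 3 and 6 of 21 alternatives. NPM1 averaged 1006 ± 38.4 FPKM with BETd-246, 1081 ± 2.98 with BETi-211 and 916 ± 45.0 in the controls of MDA-MB-468. Its rise with BETi-211 passed in every line, at 0.17, 0.24 and 0.24 (adjusted p = 0.0314, 0.00333 and 0.00334). With BETd-246 it passed in MDA-MB-231 alone, at 0.20 (adjusted p = 0.0145), and quantile normalization turned that value to -0.040. That call was lost in 5 more of 21 alternatives. None of the 3 NPM1 rises with BETi-211 passed after quantile normalization, where they were 0.0083, 0.045 and 0.00025. In the same order of lines, these calls were lost in 7, 4 and 1 of 21 alternatives.

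The large-subunit assembly factors RRS1 and BOP1 had changes of opposite sign. RRS1 is a gene of 1 exon and 1706 bases on the plus strand at chr8:66429028-66430733, and an annotated protein-coding gene on the same strand, AC009879.2, overlaps it without a row of its own. In MDA-MB-157 RRS1 had 3.98 and 4.44 FPKM with BETd-246, 4.34 and 4.02 with BETi-211, 10.4 and 10.7 with thalidomide and 11.2 and 10.1 with DMSO. In MDA-MB-231 it had 5.05 and 5.49 FPKM with BETd-246, 3.38 and 3.66 with BETi-211, 13.9 and 11.02 with thalidomide and 14.4 and 14.1 with DMSO. All libraries with a compound were far below the controls, and in MDA-MB-231 those with BETi-211 were the lowest. In MDA-MB-468 the values were 3.98 and 3.65 FPKM with BETd-246, 3.98 and 4.04 with BETi-211, 11.4 and 11.6 with thalidomide and 9.89 and 10.2 with DMSO.

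On the log2 scale RRS1 changed by -1.16, -1.19 and -1.29 with BETd-246 (SE 0.070 each, adjusted p = 6.63e-10, 4.50e-10 and 1.23e-10). With BETi-211 it changed by -1.16, -1.66 and -1.23 (adjusted p = 1.19e-09, 1.39e-11 and 3.27e-10), which is a fold of 2.24, 3.16 and 2.34. A called fall by a fold of 2 or more was seen in 4.2%, 4.56% and 6.11% of all genes with BETd-246 and in 0.914%, 1.47% and 2.2% with BETi-211. Only 0.432%, 0.113% and 0.893% of all genes had a lower change than RRS1 with BETi-211. All 6 falls kept their call in each alternative analysis, and relative to the median of all genes they ran from -0.91 to -1.64 on the deposited scale and under 4 other scalings.

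BOP1, on the minus strand at chr8:144262102-144291370, averaged 48.4 ± 2.91 FPKM with BETd-246 in MDA-MB-157, against 42.3 ± 3.81 in the controls, and rose by 0.19 (adjusted p = 0.0172). In MDA-MB-468 it rose by 0.21 with BETd-246 and by 0.22 with BETi-211 (adjusted p = 0.00888 and 0.00825). The other 3 changes, of 0.11 to 0.13, did not pass. The called rises did not pass with column-total scaling. In the order given, they were lost in 6, 3 and 3 of 21 alternatives.

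Set directly against each other, and at doses that differ, 100 nM for BETd-246 and 1000 nM for BETi-211, the compounds differed in NOP56 in every line. It was lower with BETd-246 than with BETi-211 by 0.52, 0.47 and 0.73 on the log2 scale (SE 0.045 each, adjusted p = 8.56e-08, 2.70e-07 and 9.73e-10), and kept this call in each alternative analysis. In MDA-MB-157, 4 of the 10 genes were lower with BETd-246 and 0 higher, against 22.3% and 24.2% of all genes. These were NOP56, NCL (-0.21, adjusted p = 0.00496), POLR1B (-0.17, adjusted p = 0.00761) and NOLC1 (-0.12, adjusted p = 0.0346). The POLR1B call was lost with median-of-ratios scaling (-0.10, adjusted p = 0.087) and with quantile normalization (-0.075, adjusted p = 0.258). NOLC1 lost its call in 5 of 19 alternatives (adjusted p up to 0.458) and NCL in 2 (adjusted p up to 0.0718). MDA-MB-231 had 1 lower and 1 higher, against 23.9% and 17.8%, and MDA-MB-468 had 1 lower and 0 higher, against 23.2% and 20.1%.

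RRS1 was higher with BETd-246 than with BETi-211 in MDA-MB-231, by 0.47 (95% confidence interval 0.30 to 0.64, adjusted p = 0.000171). In MDA-MB-157 its difference between the compounds was 0.0067, with an interval of -0.16 to 0.18, and in MDA-MB-468 it was -0.059, with an interval of -0.23 to 0.11. MYC was lower with BETd-246 than with BETi-211 by 2.19, 1.93 and 1.70. SNORD86, inside NOP56, was also lower with BETd-246 than with BETi-211 in MDA-MB-157 (-1.19, adjusted p = 0.000316), and its differences of -0.53 in MDA-MB-231 cells and -0.44 in MDA-MB-468 cells did not pass.

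Thalidomide against DMSO gave 0 calls among the 10 genes in each line in limma, beside 0.184% of all genes in MDA-MB-157 and 0% in the other lines. The changes ran from -0.13 to 0.13 in MDA-MB-157 cells, from -0.19 to 0.11 in MDA-MB-231 cells and from -0.12 to 0.29 in MDA-MB-468 cells. Without adjustment, 0, 1 and 4 of the 10 had a p below 0.05 in the same order, beside 2093, 766 and 1980 of the 14114 genes. Leaving out the second thalidomide library of MDA-MB-231 gave genes called lower with thalidomide there. That fit rests on 1 thalidomide library, which was low for NOP58, NOLC1 and NPM1 among the controls. Leaving out the first DMSO library of MDA-MB-157 gave a call higher, with 1 DMSO library left. The share of all genes called in these fits is not given here.

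The BETi-211 effect on RRS1 and POLR1B depended on the line. The fall of RRS1 with BETi-211 was larger in MDA-MB-231 than in MDA-MB-157, by -0.50 (adjusted p = 0.00205), and smaller in MDA-MB-468 than in MDA-MB-231, by 0.43 (adjusted p = 0.00441). The POLR1B fall with BETi-211 was larger in MDA-MB-468 than in MDA-MB-157, by -0.31 (adjusted p = 0.000981), and in MDA-MB-231 than in MDA-MB-157, by -0.19 (adjusted p = 0.0344), and this last call was lost in several alternatives. With quantile normalization the RRS1 difference of MDA-MB-231 to MDA-MB-157 was -0.31 (adjusted p = 0.0515). With thalidomide alone as control that of MDA-MB-468 to MDA-MB-231 was 0.25 (adjusted p = 0.17). Calls of a line difference in the BETi-211 effect were made for 16.5% of all genes between MDA-MB-231 and MDA-MB-157, 21.9% between MDA-MB-468 and MDA-MB-231 and 21.6% between MDA-MB-468 and MDA-MB-157. The NOP56 rise was larger in MDA-MB-468 than in MDA-MB-231 by 0.17 (adjusted p = 0.0398), a call that was lost with either control alone, without the variance trend and without most single libraries (adjusted p = 0.0514 to 0.148). With BETd-246 the only line difference called was POLR1B, by -0.21 between MDA-MB-468 and MDA-MB-157 (adjusted p = 0.0211), where 13.1% of all genes were called, beside 13.3% between MDA-MB-468 and MDA-MB-231 and 11.2% for the remaining pair.

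The BETd-246 changes of MYC, -1.91, -2.51 and -3.28, differed between lines in all 3 pairs (adjusted p = 0.000357, 1.96e-05 and 2.86e-08). Its levels were 6.61 and 5.79 FPKM with BETd-246 in MDA-MB-157, 30.7 and 32.95 with BETi-211, 27.9 and 27.1 with thalidomide and 25.3 and 24.01 with DMSO. The BETi-211 libraries of that line were thus above all controls. In MDA-MB-231 MYC had 12.8 and 12.4 FPKM with BETd-246, 50.5 and 51.2 with BETi-211, 69.1 and 81.4 with thalidomide and 78.5 and 78.6 with DMSO. In MDA-MB-468 it had 5.03 and 5.70 FPKM with BETd-246, 18.4 and 20.95 with BETi-211, 62.5 and 63.0 with thalidomide and 59.4 and 58.9 with DMSO, and in these lines both compounds were below all controls.

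Beside these MYC changes, the falls of RRS1 did not take the same order over both compounds. With BETd-246 alone they did, at -1.16, -1.19 and -1.29, although no RRS1 difference between lines was called there. In MDA-MB-157 with BETi-211, where MYC rose by 0.28 (adjusted p = 0.00215), RRS1 fell by 1.16, and with BETd-246, where MYC fell by 1.91, RRS1 also fell by 1.16. The largest RRS1 fall, 1.66, stood beside a MYC change of -0.58, with BETi-211 in MDA-MB-231. The POLR1B falls were 0.39 beside the MYC rise, 0.56 to 0.77 beside MYC falls of 1.91 to 3.28, and 0.58 and 0.70 beside MYC falls of 0.58 and 1.58. Within each compound the POLR1B falls took the order of the MYC changes. NOP56 changed by -0.21, -0.19 and -0.28 with BETd-246 and by 0.31, 0.28 and 0.45 with BETi-211, in neither case in that order.

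**Figure D4:**
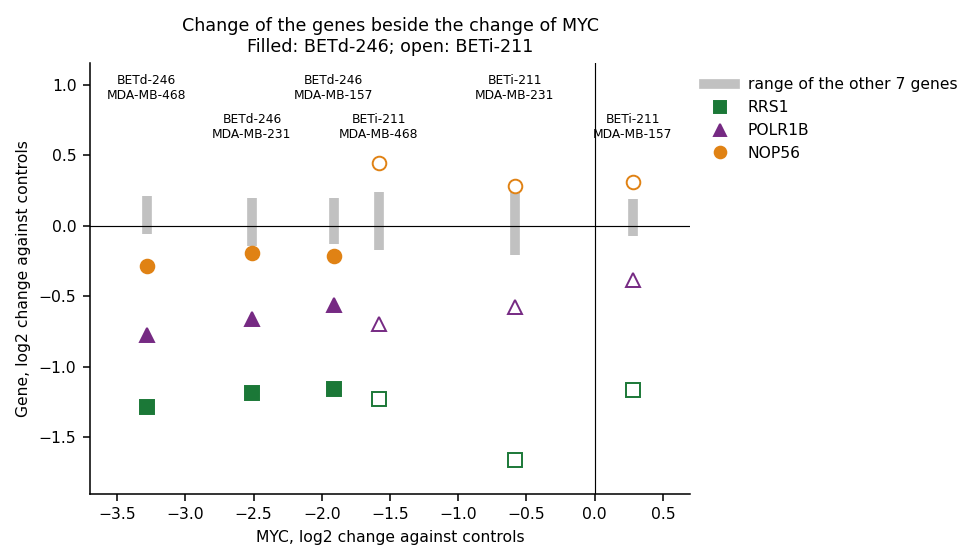
Change of RRS1, POLR1B and NOP56 and range of the other 7 genes (vertical axis) beside the change of MYC (horizontal axis), both as log2 changes against the controls of the line. Filled symbols are BETd-246 and open symbols BETi-211; the points of a line share controls, and RRS1 lies between -1.16 and -1.66 over MYC changes from 0.28 to -3.28.

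Across the 24 libraries, after the mean of each line was taken off, RRS1 and POLR1B had the strongest positive link among the 10 genes (Pearson r = 0.95), and POLR1A and NPM1 the strongest negative (r = -0.89). POLR1B had r = 0.83 with MYC, RRS1 0.66 and NOP56 0.48, whereas BOP1 had -0.60 and FBL -0.46. These values describe libraries that share lines, controls and library scaling, so they are no measure of a link within a condition. The genes outside the lists most like the mean of the 10 genes, by r over the 24 libraries, were URGCP at 0.963, AEN at 0.961, TRIM27 at 0.960, ARF6 at 0.958 and POP1 at 0.957. They were chosen for that likeness, so their changes with the compounds are no separate result. Nor does the mean stand for each of the 10 genes. With the mean of the other members, r was 0.80 for POLR1B, 0.59 for NOP58, 0.39 for POLR1A and 0.19 for RRS1. It was -0.11 for NOP56, -0.38 for NCL, -0.45 for FBL, -0.52 for NOLC1 and -0.69 for both NPM1 and BOP1.

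A wider set of 139 ribosome biogenesis genes, listed by function and all measured, had a lower median than the 10 genes. With BETd-246, 87, 69 and 76 of the 139 were called lower, beside 32.4%, 33.3% and 33.7% of all genes, and 9, 7 and 17 higher, beside 19%, 14.8% and 20.1%. With BETi-211, 86, 95 and 87 were lower, beside 30.9%, 31.4% and 32.5%, and 2, 4 and 9 higher, beside 14.9%, 18.7% and 21.3%. The list medians were -0.19, -0.13 and -0.14 with BETd-246 and -0.19, -0.23 and -0.22 with BETi-211, beside -0.027, -0.047 and -0.029 and -0.033, -0.031 and -0.014 over all genes. Called lower in all 3 lines were 60 of the 139 with BETd-246, beside 23.6% of all genes, and 71 with BETi-211, beside 19.9%. The BETd-246 counts turn on the scaling, with 49, 36 and 48 lower and 34, 57 and 49 higher under median-of-ratios scaling, against 106, 101 and 96 lower and 1, 1 and 5 higher under column-total scaling. The calls over all genes moved as well. With BETd-246, 64.1 to 65% of them were higher under median-of-ratios scaling and 9.88 to 17.9% under column-total scaling, against 30.7 to 37.4% as deposited. The BETi-211 counts under median-of-ratios scaling were 71, 75 and 74 lower and 15, 15 and 22 higher, where 50.5 to 54.4% of the calls over all genes were higher. These shares for the scalings are of calls, not of genes. The counts under other scalings thus stand without the share of all genes called beside them.

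RNA polymerase I and its factors had the lowest list medians, with 10, 9 and 10 of 14 genes lower with BETd-246 and 9, 12 and 10 with BETi-211, beside 32.4 to 33.7% and 30.9 to 32.5% of all genes, at list medians of -0.25, -0.28 and -0.29 and of -0.22, -0.34 and -0.26. POLR1C, a subunit shared by RNA polymerases I and III, fell by 1.09, 1.25 and 1.28 with BETd-246 (adjusted p = 2.45e-11, 4.22e-12 and 2.09e-12) and changed by 0.069, -0.12 and -0.23 with BETi-211. Its difference between the compounds was -1.16, -1.13 and -1.05 (adjusted p = 9.70e-11, 1.30e-10 and 2.74e-10). POLR1C overlaps YIPF3 and XPO5 on the other strand, and the libraries do not mark strand. TAF1A, a subunit of the promoter selectivity factor SL1, fell by 0.89, 0.47 and 0.84 with BETd-246 and by 0.84, 0.65 and 0.68 with BETi-211, and an antisense gene overlaps it. TTF1, the RNA polymerase I termination factor, fell by 0.57, 0.54 and 0.61 and by 0.60, 0.40 and 0.73. TCOF1, the treacle protein, was lower with BETi-211 in each line (-0.18, -0.33 and -0.27). Against controls it rose with BETd-246 by 0.098 in MDA-MB-157 and by 0.11 in MDA-MB-468 (adjusted p = 0.019 and 0.00984). Its change of -0.073 in MDA-MB-231 did not pass. Set against BETi-211, TCOF1 was higher with BETd-246 by 0.28, 0.26 and 0.37 (adjusted p = 1.39e-05, 2.96e-05 and 4.41e-07).

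Of the 15 genes of the snoRNP list 7, 5 and 5 were lower and 3, 3 and 6 higher with BETd-246. Over all genes 32.4%, 33.3% and 33.7% were lower and 19%, 14.8% and 20.1% higher. With BETi-211, 5, 6 and 7 of the 15 were lower and 0, 0 and 3 higher. Over all genes 30.9%, 31.4% and 32.5% were lower and 14.9%, 18.7% and 21.3% higher. The counts of 5 lower and of 3 higher are near the share over all genes. Picked by their p with BETd-246, the snoRNP assembly factors NUFIP1, ZNHIT6 and NAF1 fell in all 6 comparisons, NUFIP1 by 0.38 to 0.75, ZNHIT6 by 0.29 to 0.70 and NAF1 by 0.30 to 0.53. NHP2, a core protein of the box H/ACA particles, rose with BETd-246 by 0.25, 0.29 and 0.32, and overlaps RMND5B on the other strand.

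Of 50 small-subunit genes, 33, 26 and 30 were lower with BETd-246 and 29, 34 and 34 with BETi-211, with 1 to 3 higher, beside 30.9 to 33.7% of all genes lower and 14.8 to 21.3% higher. MPHOSPH10, a U3 snoRNP protein, fell by 1.29, 0.97 and 1.56 with BETd-246 and by 0.55, 0.31 and 0.74 with BETi-211. RIOK2, a kinase of late small-subunit maturation, fell by 1.23, 0.64 and 1.47 with BETd-246, and changed by 0.11, 0.34 and 0.32 with BETi-211, of which the last 2 passed. Its difference between the compounds was -1.34, -0.98 and -1.79 (adjusted p = 6.10e-12, 2.72e-10 and 1.53e-13). DIEXF, a small-subunit processome protein, fell in all 6 comparisons, by 0.59 to 0.97. DDX49, an RNA helicase, rose with BETd-246 by 0.21 in MDA-MB-157 and by 0.24 in MDA-MB-468. With BETi-211 DDX49 rose by 0.22 in MDA-MB-468 (adjusted p = 0.00853), and changes of 0.11 and 0.12 in the other lines did not pass.

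Of 60 large-subunit genes, 37, 29 and 31 were lower with BETd-246 and 43, 43 and 36 with BETi-211, and 1 to 7 were higher, beside the same shares over all genes. BRIX1, an assembly factor that like RRS1 acts on the large subunit, fell by 0.76, 0.61 and 0.87 with BETd-246 and by 0.86, 1.14 and 1.13 with BETi-211, and overlaps RAD1 on the other strand. URB2 fell by 1.13, 1.11 and 1.48 with BETd-246 and by 0.47, 0.99 and 0.83 with BETi-211. SURF6, a nucleolar matrix protein, fell by 0.81, 1.02 and 0.80 and by 0.25, 0.59 and 0.46. NOC2L, which like BOP1 was called higher with BETd-246, rose by 0.23, 0.18 and 0.27 and overlaps SAMD11 on the other strand.

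**Figure D5:**
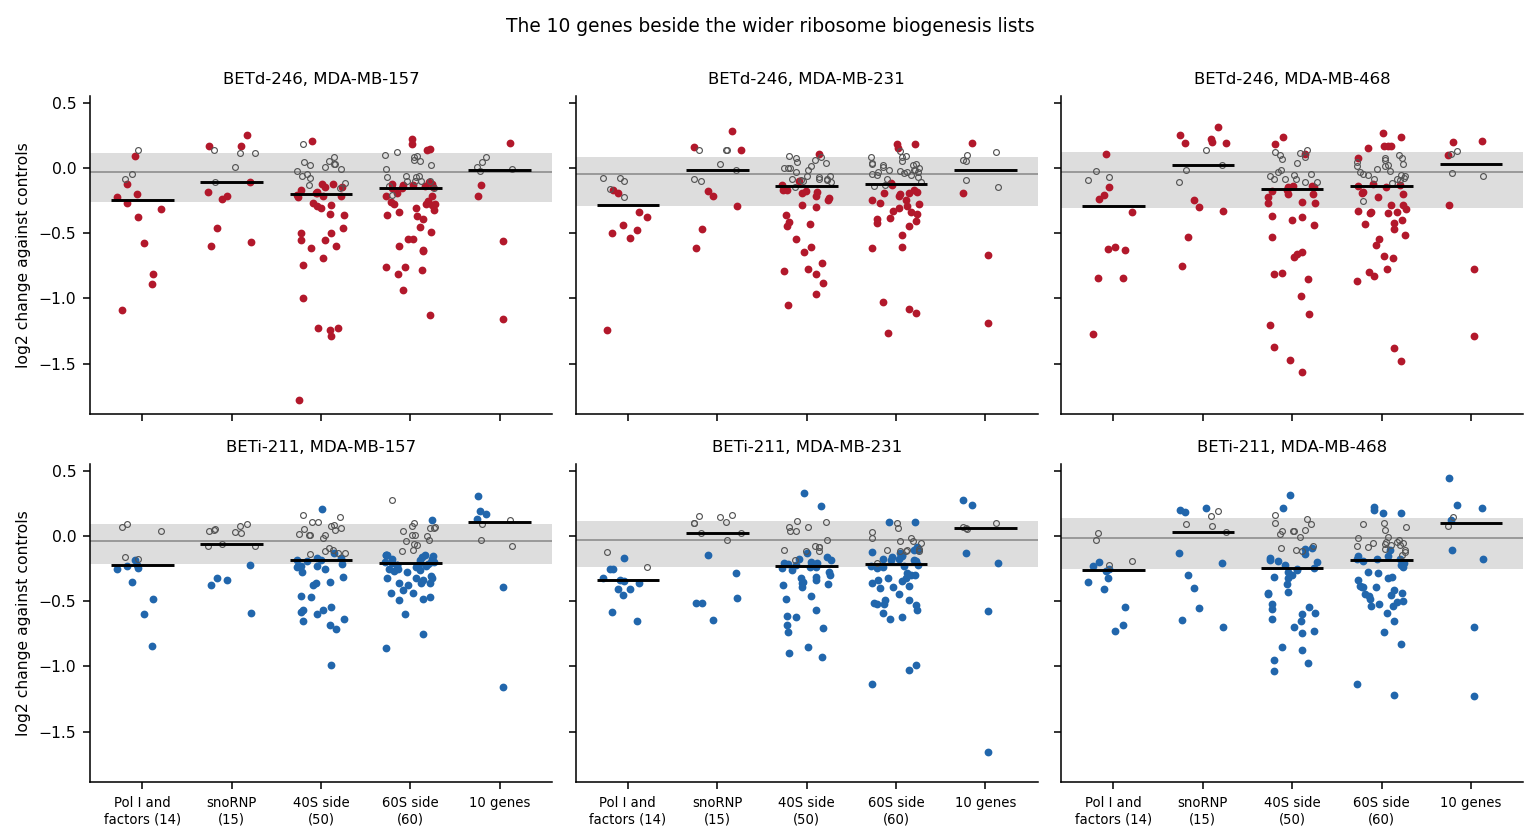
Log2 change of each gene against the controls of its line for 4 wider lists and for the 10 genes, BETd-246 in the upper row and BETi-211 in the lower. Filled points passed at an adjusted p below 0.05, black bars are list medians, the grey band holds the middle 50% of all 14114 genes and the grey line is their median; the RNA polymerase I list has medians between -0.22 and -0.34, and the 10 genes between -0.015 and 0.11.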

How the data were processed

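The authors deposited 1 table of 14114 genes in 24 libraries, with no unit named. The deposited values were taken as FPKM computed by the authors, since they sum to 454289 to 534179 per library and their lowest steps fall with transcript length. Tools named per the submitters' notes on processing were Bowtie 0.12.8 and bcl2fastq 2.17.1.14, with build GRCh38.p5. The sources used here do not give the program, annotation or gene filter behind the FPKM. Libraries were made with the TruSeq v2 kit, per the labels' protocols, which does not mark strand. The depth was estimated from the smallest values above 0 among 1786 genes with a single transcript.

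Values were tested as log2(FPKM + 1), which understates changes of low genes, using R 4.3.3 and limma 3.58.1. Fitted were 12 group coefficients with a variance trend, on 12 residual and 3.32 prior degrees of freedom, and tests were two-sided. Each compound was set against the average of its thalidomide and DMSO coefficients. Since the table holds no counts, no count test was run and no counting interval given. The fit was tested on simulated data.

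The members, lists and tests were chosen with earlier results of these data known. Named beside the 10 genes and MYC were, per wider list, the 3 genes with the smallest p for BETd-246 averaged over lines, the largest rise, and the 5 genes most like the mean of the 10. Alternatives covered the pseudocount (0.1, 0.5), a filter of 5 FPKM, 4 scalings, the variance model, the controls, single lines, a replicate block and leaving out each library. Counts for the wider lists under these alternatives were added after seeing the data. Coordinates and overlaps are from GENCODE 29 (13951 of 14114 identifiers matched), promoters from RefSeq.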

Additional observations from a re-analysis of the deposited data

Results flagged for a closer look

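In the 4 control libraries of MDA-MB-231, a single library stood apart from the other 3 for 4 of the genes, judged by its gap to the nearest library relative to the range of the 4. The first thalidomide library was low for NOP58, at 57.15 FPKM where the others had 61.53 to 62.41, for NOLC1, at 125.7 FPKM where the others had 138.3 to 140.1, and for NPM1, at 543.6 FPKM where the others had 654.3 to 668.4. The second thalidomide library was low for RRS1, at 11.02 FPKM where the others had 13.89 to 14.41. In all, 33 groups of 4 libraries were examined for 11 genes, and chance alone flags about 1 in 20.

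Effects of the compounds that differed between lines, tested as a difference of log2 changes, were as follows. The BETd-246 effect on POLR1B differed by -0.21 between MDA-MB-468 and MDA-MB-157. The BETi-211 effect on POLR1B differed by -0.31 between MDA-MB-468 and MDA-MB-157 and by -0.19 between MDA-MB-231 and MDA-MB-157. For RRS1 the BETi-211 effect differed by -0.50 between MDA-MB-231 and MDA-MB-157 and by 0.43 between MDA-MB-468 and MDA-MB-231. For NOP56 it differed by 0.17 between MDA-MB-468 and MDA-MB-231. The BETd-246 effect on MYC differed by -1.37 between MDA-MB-468 and MDA-MB-157, by -0.77 between MDA-MB-468 and MDA-MB-231 and by -0.60 between MDA-MB-231 and MDA-MB-157. The BETi-211 effect on MYC differed by -1.86, -0.999 and -0.86 in the same order of lines.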

How the results depend on the processing

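The falls of RRS1, POLR1B and, with BETd-246, MYC, and the NOP56 rise with BETi-211 and its difference between the compounds, kept direction and call in all alternatives. Counts of called genes among the 10 follow where they moved by over 1.5 times, and the cause was not tested. They stand without the share of all genes called in each alternative.

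Median-of-ratios scaling gave 6 higher with BETd-246 in each line and 2 lower in MDA-MB-157, and with BETi-211 5 higher and 2 lower in MDA-MB-231 and 2 lower in MDA-MB-468. Between the compounds it gave 1 lower in MDA-MB-157 and 3 higher in MDA-MB-231 cells and MDA-MB-468 cells. It turned the sign with BETd-246 of POLR1A (0.15), NOP58 (0.029) and NCL (0.14) in MDA-MB-157, of NOP56 (0.0090) and NOP58 (0.11) in MDA-MB-231 and of NOP58 (0.15) in MDA-MB-468. Calls higher made up 64.1 to 65% of all calls with BETd-246 under that scaling, 62 to 62.4% with quantile normalization, 49.2 to 54.6% with upper-quartile scaling and 9.88 to 17.9% with column-total scaling, against 30.7 to 37.4% as deposited. With BETi-211 the shares were 50.5 to 54.4%, 48.8 to 51.1%, 52.9 to 55.4% and 23.1 to 26.3%, against 32.6 to 39.6%. Between the compounds they were 65.6 to 67.5%, 61.6 to 64.7%, 44.7 to 52.7% and 38.1 to 43.7%, against 42.6 to 52.1%.

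Quantile normalization gave 0 and 1 higher with BETd-246 in MDA-MB-231 cells and MDA-MB-468 cells, 1 and 2 higher with BETi-211 in these lines, 1 lower for the BETd-246 effect in MDA-MB-468 against MDA-MB-231 and 1 lower for the BETi-211 effect in MDA-MB-231 against MDA-MB-157. It turned NPM1 to -0.040 in MDA-MB-231 cells with BETd-246 and to -0.052 in MDA-MB-231 against MDA-MB-157 controls. Upper-quartile scaling gave 3, 5 and 5 higher with BETd-246, 5 higher and 2 lower with BETi-211 in MDA-MB-231, 2 lower in MDA-MB-468, 1 higher for the BETi-211 effect and 2 lower for the controls in MDA-MB-468 against MDA-MB-157. Column-total scaling gave 0 higher with BETd-246 in each line and 5 lower in MDA-MB-231, 1 and 2 higher with BETi-211 in MDA-MB-157 cells and MDA-MB-468 cells, 0 lower for the BETd-246 effect and 2 lower for the controls in MDA-MB-468 against MDA-MB-157, and 1 lower for the BETi-211 effect in MDA-MB-231 against MDA-MB-157.

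DMSO alone gave 0 higher with BETd-246 and 1 with BETi-211 in MDA-MB-231, and 0 lower, 1 higher and 1 lower for the effects of BETd-246 in MDA-MB-468 against MDA-MB-157, BETi-211 in MDA-MB-468 against MDA-MB-231 and BETi-211 in MDA-MB-231 against MDA-MB-157. Thalidomide alone gave 0 and 1 higher with BETd-246 in MDA-MB-157 cells and MDA-MB-468 cells and 0 higher for the BETi-211 effect in MDA-MB-468 against MDA-MB-231, for which no variance trend gave 1. Lines alone gave 0 higher with BETd-246 in MDA-MB-157 and MDA-MB-231 and 1 higher with BETi-211 in MDA-MB-231. A pseudocount of 0.1 gave 1 lower for the BETi-211 effect in MDA-MB-231 against MDA-MB-157.

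Leaving out single libraries gave 3 to 4, 3 to 4 and 3 lower and 0 to 1, 0 to 3 and 0 to 4 higher with BETd-246, and 2, 3 to 4 and 2 to 4 lower and 1 to 4, 1 to 3 and 3 to 5 higher with BETi-211. Between the compounds it gave 2 to 4, 1 and 1 lower and 0, 1 and 0 to 1 higher, and for thalidomide 0, 0 to 3 and 0 lower and 0 to 1, 0 and 0 higher. Without BETd-246 replicate 2 the higher count with BETd-246 was 0 in each line, without its replicate 1 it was 0 in MDA-MB-231 cells and 1 in MDA-MB-468 cells, and in MDA-MB-157 it was 0 also without DMSO replicate 2 or thalidomide replicate 1. In MDA-MB-231 it was 3 without thalidomide replicate 2. Without BETi-211 replicate 2 there were 1 higher in MDA-MB-157, 1 higher in MDA-MB-231 cells and 2 lower in MDA-MB-468 cells with BETi-211. Between the compounds in MDA-MB-157, 2 were lower without BETd-246 replicate 1 or either BETi-211 library. Line differences of effects gave 0 to 1 call with BETd-246 and 0 to 3 with BETi-211. Those of the controls gave 10 higher, 7 higher with 1 to 2 lower, and 3 higher with 6 lower.

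Equal replicate numbers paired libraries in no uniform way: deviations of same-numbered libraries correlated at -0.35 to 0.31 over 18 pairs of groups, above 0.1 in 10 and below -0.1 in 3. In MDA-MB-468 the BETd-246, DMSO and thalidomide groups correlated with each other at 0.28 to 0.31. Whether libraries were paired in some lines cannot be told from these values. A replicate block gave 5 lower with BETd-246 in MDA-MB-231. All 10 genes lie well above the value of 1 fragment. Whether depth or the 2 libraries per group limits precision more was not tested.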
